A study of Acomys cahirinus and Mus musculus with 24 samples.

Results

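The 10 genes described here encode the muscle-type nicotinic acetylcholine receptor and the proteins that hold it at the neuromuscular junction. They were taken by symbol from a count table shared by both species of the study, which lists 14514 features besides spike-in RNAs. All 10 of the 10 were listed there, and all 10 passed the filter on low counts, as did every other feature of that table. The study compared the dorsal skin of 2 rodents after injury: the house mouse, Mus musculus, of the CD-1 stock, and the spiny mouse, Acomys cahirinus, for which no strain is given. All animals were adult. Unwounded skin is called day 0, and wounds left by full-thickness excisions of 8 mm were collected 7 and 14 days later, so each species has 3 groups. The labels name no engineered allele and no agent in any group. Each group held 4 libraries, except Mus day 0, which held 3 (replicates 1, 2 and 4).

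The receptor is a ring of 5 subunits that opens when acetylcholine from the motor nerve binds it. The adult form contains alpha, beta, delta and epsilon subunits, and in the fetal form, which also returns in denervated and regenerating muscle, a gamma subunit takes the place of epsilon. Agrin released by the nerve binds LRP4, which activates the kinase MuSK. MuSK, with its adaptor DOK7, drives the clustering of receptors by the scaffold protein rapsyn. Dorsal skin of rodents carries a thin sheet of skeletal muscle, the panniculus carnosus, which a full-thickness wound removes.

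The positions that follow are whole protein-coding genes, exons and introns together, in the mouse build GRCm38 with GENCODE vM21, and locate the genes only, since the submitters name the older build mm9. Of the receptor genes, Chrna1 (alpha 1) is at chr2:73563215-73580338 on the minus strand and Chrnb1 (beta 1) at chr11:69784036-69795943, also minus. Chrnd (delta) at chr1:87190607-87200070 and Chrng (gamma) at chr1:87204657-87212694 are neighbours on the plus strand with 4586 bases between them. Chrne (epsilon) is at chr11:70614883-70619216 on the minus strand, with the gene 4930544D05Rik inside it on the opposite strand. Musk is at chr4:58285960-58374303 (plus), Dok7 at chr5:35056766-35087839 (plus) and Agrn at chr4:156165290-156197488 (minus). Rapsn, at chr2:91035620-91045729 (plus), is overlapped at its end by the antisense transcript Gm13778, and Lrp4 is at chr2:91457511-91513779 (plus). The authors are not stated to have used strand in counting, so reads of Chrne and Rapsn cannot be told apart from those of their antisense partners. In the table of Mus alone, 4930544D05Rik had 2 counts at day 0 and 0 at both later days.

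In the authors' annotation of the assembled Acomys transcripts, each of the 10 genes had at least 2 transcripts whose best protein match was that gene's product. The longest match to the gamma subunit covered 519 residues at 94.6% identity, and the longest to the delta subunit covered 502 residues at 95.2%. The longest match to the epsilon subunit covered 293 residues at 95.2% identity and was drawn from 62 assembled transcripts. The transcripts matching gamma and epsilon fell in 1 assembly component, which also held transcripts matching Chrnb1. How reads were shared among them is not stated, so the split between these 3 genes in Acomys is uncertain.

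Totals ran from 5980683 to 9853153 counts per library, and levels are given as CPM, a library's counts of a gene scaled to a common total, after scaling by the trimmed mean of M values (TMM). Every test is edgeR's quasi-likelihood F-test, two-sided, with the Benjamini-Hochberg adjusted p taken over all 14514 features and 0.05 as the threshold. Chrnd, Chrng and Chrne were too low in Mus to meet the low-count filter there and met it only through Acomys libraries. A log2 fold change is given with its standard error (SE). Whether each library of a group is a different animal is not stated, and the p-values therefore speak only of variation among libraries, which may be technical.

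Skeletal muscle RNA differed strongly between libraries, and its values are given here because they stand beside every result. The summed level of 18 adult muscle genes was 65662 to 78563 CPM in Mus day 0, 135 to 11366 CPM in Mus day 7 and 58.6 to 24240 CPM in Mus day 14. In Acomys it was 13978 to 49902 CPM at day 0, 1803 to 5808 CPM at day 7 and 24633 to 33870 CPM at day 14. The 3 lowest Mus wound libraries (day 7 replicate 3 and day 14 replicates 2 and 3) held 135, 58.6 and 77.2 CPM, with the fast myosin Myh4 down to 2.01 CPM at day 14. In these bulk samples, fewer cells of a type and less RNA per cell cannot be told apart.

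**Figure D1:**
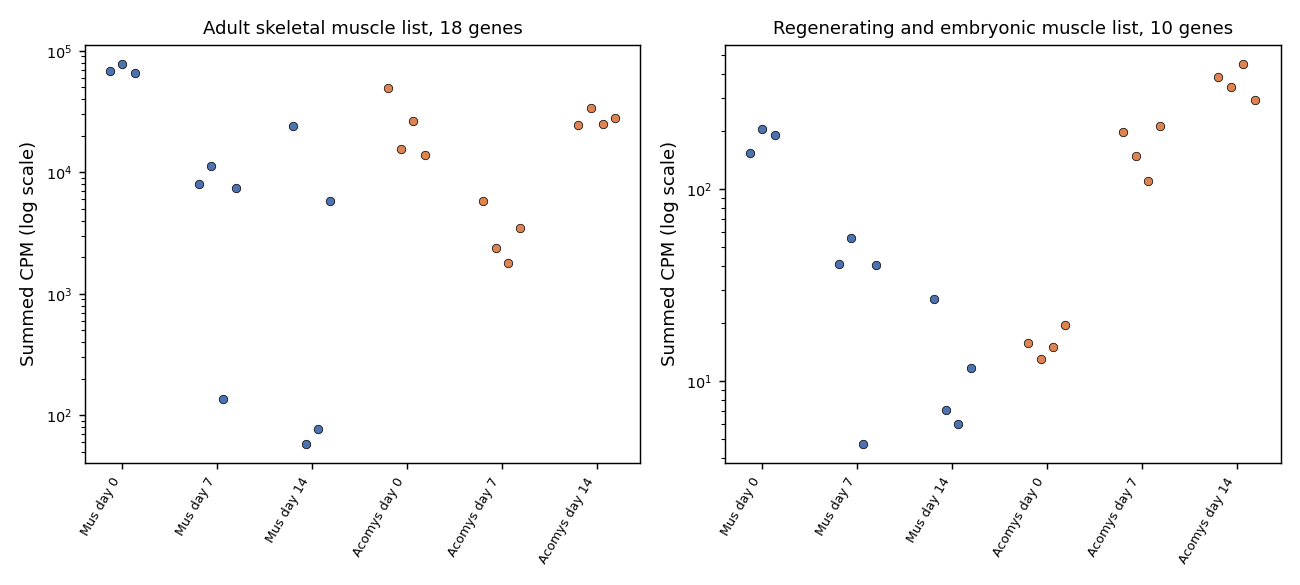
Summed CPM (log scale) of the adult muscle list (18 genes, left) and the regenerating and embryonic muscle list (10 genes, right) in each library, 1 point per library. Adult muscle RNA in Acomys day 14 lay within the day 0 range (24633 to 33870 against 13978 to 49902 CPM), while the embryonic sum was 290.1 to 451 CPM against 13.1 to 19.6 CPM. In Mus the embryonic sum was 155 to 205 CPM at day 0 and lower in every wound library.

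In Acomys wounds at day 14, all 5 receptor subunits were above unwounded skin, by 2.05-fold (Chrnb1) to 8.38-fold (Chrng). In that comparison 38.9% of all features were called, 18.9% higher and 20% lower. Of the 5 clustering and signalling genes, Lrp4 fell and none passed as a rise against day 0, although Dok7 was above every day 0 library. The wound at day 7 was mixed, with Chrng and Chrna1 already up while Musk, Rapsn and Lrp4 were far down. In Mus, no member rose against day 0 at either day, and 5 fell at each. Over all features 53.7% were called in Mus at day 7 (26.7% lower) and 43.8% at day 14 (22.1% lower). The sections that follow give the libraries behind these statements, subunits first.

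Chrng, the fetal gamma subunit, rose most in Acomys. Its level was 1.36, 1.39, 0.9748 and 2.81 CPM in the 4 day 0 libraries, 9.18, 7.35, 4.71 and 8.38 CPM at day 7, and 14.53, 12.2, 18.0 and 11.1 CPM at day 14. No 2 of these groups overlapped, and each later day was above the one before. The log2 fold change against day 0 was 2.15 ± 0.32 at day 7 (edgeR adjusted p = 4.11e-06) and 3.07 ± 0.31 at day 14 (edgeR adjusted p = 1.33e-07). From day 7 to day 14 it rose by a further 0.92 ± 0.26 (edgeR adjusted p = 0.00727). In Mus, Chrng was barely detected: 3 counts in all at day 0, 8 at day 7 and 2 at day 14. The Mus day 7 to day 0 ratio from these counts was 2.27, with a 95% interval of 0.544 to 13.3 that covers counting error only, so no change was detectable at this depth.

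Chrna1, the alpha subunit that carries the main part of the acetylcholine binding site, followed the same course in Acomys. The 4 day 0 libraries held 1.67, 1.89, 3.06 and 2.70 CPM, day 7 held 9.18, 3.94, 3.38 and 7.41 CPM, and day 14 held 12.8, 15.6, 16.3 and 14.66 CPM. The day 14 libraries were all above the day 7 ones, which were all above day 0. The log2 fold change was 1.36 ± 0.31 at day 7 (edgeR adjusted p = 0.00055) and 2.67 ± 0.30 at day 14 (edgeR adjusted p = 4.15e-07). In Mus it went the other way, with 7.19, 6.27 and 5.38 CPM at day 0, 6.04, 6.72, 2.84 and 5.10 CPM at day 7, and 3.99, 3.47, 3.89 and 2.39 CPM at day 14. Day 14 did not overlap day 0, and the gene fell by 0.87 ± 0.33 on the log2 scale (edgeR adjusted p = 0.0341). This call was lost on omitting replicate 1 or 2 of Mus day 0, and replicate 2 or 4 of day 14 (edgeR adjusted p up to 0.111). The value of 3.89 CPM belongs to day 14 replicate 3, where the adult muscle sum was 77.2 CPM, and the lowest Chrna1 of the group was in replicate 4, where that sum was 5811 CPM. At day 7 the lowest Chrna1, 2.84 CPM, was in the muscle-poor replicate 3.

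Chrne, the adult epsilon subunit, also rose in Acomys, but only the day 14 change passed the test. Its levels were 1.88, 1.64, 2.79 and 1.69 CPM at day 0, 3.75, 1.70, 2.93 and 3.41 CPM at day 7, and 6.85, 7.79, 8.84 and 7.84 CPM at day 14. Days 0 and 7 overlapped (0.57 ± 0.31, edgeR adjusted p = 0.111), a difference that passed without Acomys day 7 replicate 2 (0.76, edgeR adjusted p = 0.0393) and in the table of Acomys alone (0.70, edgeR adjusted p = 0.0369). Day 14 stood clear of both days, at 1.97 ± 0.29 over day 0 (edgeR adjusted p = 1.57e-05). In Mus, Chrne held 7, 17 and 4 counts in the day 0 libraries and 0 to 2 counts in each wound library. Both Mus wound groups lay below day 0, with log2 fold changes of -2.62 ± 0.60 at day 7 (edgeR adjusted p = 0.000621) and -2.55 ± 0.60 at day 14 (edgeR adjusted p = 0.00117). Much of that size came from Mus day 0 replicate 2. Without it the log2 fold change was -1.94 at day 7 (edgeR adjusted p = 0.0168) and -1.86 at day 14 (edgeR adjusted p = 0.0286).

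Chrnd, the delta subunit found in both receptor forms, overlapped between days 0 and 7 in Acomys and rose by day 14. The day 0 libraries held 19.0, 7.45, 11.6 and 8.43 CPM, day 7 held 22.4, 9.80, 11.1 and 12.8 CPM, and day 14 held 26.6, 38.8, 37.3 and 36.0 CPM. Days 0 and 7 overlapped (0.26 ± 0.27, edgeR adjusted p = 0.406), with replicate 1 highest on both days. Without Acomys day 0 replicate 1 the day 7 value was 0.62 and passed (edgeR adjusted p = 0.0429), and without Acomys day 7 replicate 1 it was -0.05. Day 14 was above day 0 by 1.57 ± 0.27 (edgeR adjusted p = 7.01e-05). The Mus libraries held 0 to 4 counts of Chrnd each, 7 in all at day 0, 12 at day 7 and 1 at day 14. The Mus ratio of day 14 to day 0 was 0.128 with a counting interval of 0.00285 to 0.9996, and the difference did not pass the test (edgeR adjusted p = 0.122).

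Chrnb1, the beta subunit, was the receptor gene that fell first and recovered. In Acomys it held 5.33, 3.41, 3.90 and 2.36 CPM at day 0, 2.76, 1.17, 1.78 and 2.63 CPM at day 7, and 7.502, 8.34, 8.21 and 6.92 CPM at day 14. At day 7 it fell by 0.84 ± 0.26 on the log2 scale (edgeR adjusted p = 0.00802), although the groups overlapped, and the call was lost without Acomys day 0 replicate 1 (edgeR adjusted p = 0.0565). Day 14 was above every day 0 library, by 1.04 ± 0.24 (edgeR adjusted p = 0.00128), and above day 7 by 1.88 ± 0.25 (edgeR adjusted p = 2.75e-06). In Mus it held 10.03, 8.40 and 10.5 CPM at day 0, 6.04, 7.36, 4.05 and 7.38 CPM at day 7, and 7.49, 6.02, 5.52 and 7.03 CPM at day 14. Both Mus wound groups lay below day 0. The day 7 change passed the test (-0.64 ± 0.25, edgeR adjusted p = 0.0332) and the day 14 change did not (-0.56 ± 0.25, edgeR adjusted p = 0.0718), though it passed with only those 2 groups in the fit (edgeR adjusted p = 0.0242). The day 7 call was lost without any of 4 libraries (Mus day 0 replicates 1 and 4, Mus day 7 replicates 1 and 3), with an edgeR adjusted p of up to 0.113.

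**Figure D2:**
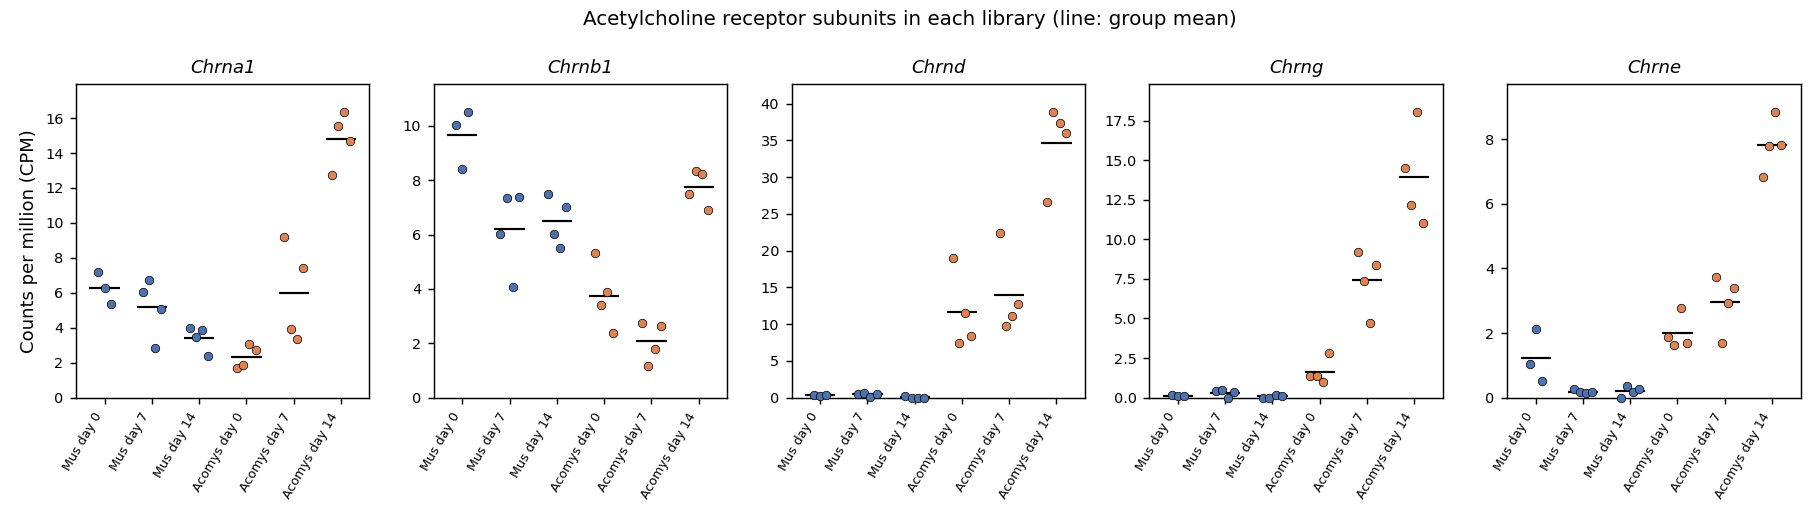
CPM of the 5 receptor subunit genes in each library (points, in order of replicate number) with group means (lines), on linear axes that start at 0. In Acomys the day 14 libraries lie above all day 0 libraries for each subunit, and the Mus libraries of Chrnd and Chrng lie near 0 throughout.

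Because gamma replaces epsilon in the fetal receptor, their counts were also set against each other within each library, as a description with no test. The log2 ratio of Chrng to Chrne, with 0.5 counts added to each, was -0.45, -0.23, -1.45 and 0.72 in the Acomys day 0 libraries. It was 1.28, 2.07, 0.68 and 1.28 at day 7, and 1.08, 0.64, 1.03 and 0.50 at day 14. The means were -0.35 ± 0.89 (SD, n = 4), 1.33 ± 0.57 (SD, n = 4) and 0.81 ± 0.29 (SD, n = 4). The balance of counts had moved towards gamma by day 7, when Chrng was up and Chrne overlapped unwounded skin. At day 14 the ratio was still above 0 in all 4 libraries. Counts were not corrected for transcript length, so 0 does not mark equal amounts of gamma and epsilon RNA. How reads were split between these genes in Acomys is uncertain, as given above. Day 0 replicate 4, with 25 gamma and 15 epsilon counts, overlapped the wound libraries. The same ratio in Mus rested on 3 gamma and 28 epsilon counts at day 0, 8 and 5 at day 7, and 2 and 5 at day 14. The Mus ratio was below 0 in each day 0 library and above 0 in 3 of the 4 day 7 libraries, on counts too few to rank the days.

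**Figure D3:**
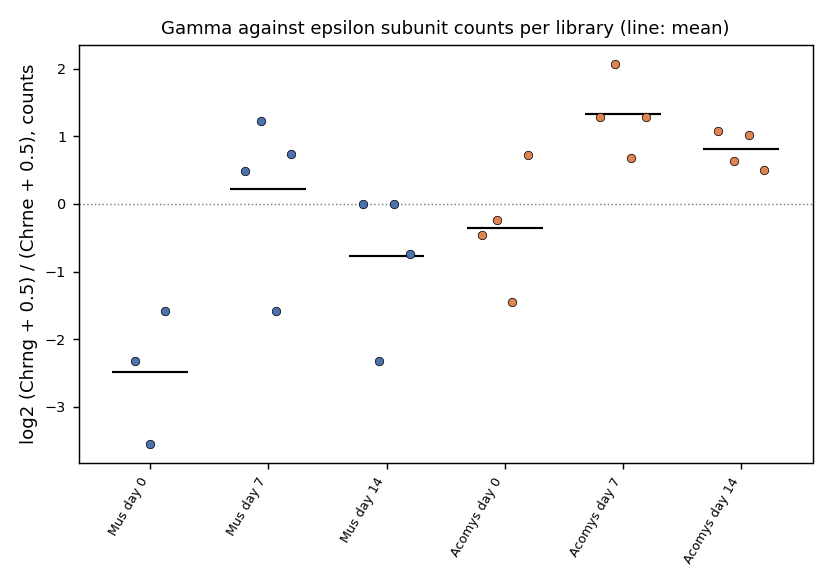
Log2 ratio of Chrng to Chrne counts (0.5 added to each) per library, with group means as lines and equal counts at the dotted 0. Acomys moves from a mean of -0.35 at day 0 to 1.33 at day 7 and 0.81 at day 14, and the Mus points rest on at most 17 counts of either gene in a library.

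Among the clustering and signalling genes, Musk, Rapsn and Lrp4 fell deeply in Acomys at day 7 and rose again by day 14. At day 14 Musk and Lrp4 were still below every day 0 library, while Rapsn overlapped day 0. Agrn fell less, and Dok7 did not pass at day 7. Musk, the receptor tyrosine kinase, held 30.0, 20.5, 22.8 and 19.2 CPM at day 0, 4.93, 1.60, 1.78 and 3.90 CPM at day 7, and 11.5, 13.6, 12.5 and 17.2 CPM at day 14. The 3 groups did not overlap. The log2 fold change was -2.92 ± 0.41 at day 7 (edgeR adjusted p = 2.59e-06) and -0.75 ± 0.36 at day 14, which did not pass the test (edgeR adjusted p = 0.102). It did pass with only the 2 groups in the fit (edgeR adjusted p = 0.00556). In Mus, Musk held 7.19, 9.91 and 7.13 CPM at day 0, 5.21, 4.64, 2.03 and 5.27 CPM at day 7, and 9.99, 8.21, 2.27 and 2.12 CPM at day 14. The Mus day 14 libraries fell into a high and a low pair. In the high pair, the adult muscle sum was 24240 CPM in replicate 1 and 58.6 CPM in replicate 2. In the low pair, it was 77.2 CPM in replicate 3 and 5811 CPM in replicate 4. At day 7 the muscle-poor replicate 3 held the lowest Musk of its group. The part of muscle content in these values was not tested. No Mus comparison of Musk passed the test (edgeR adjusted p = 0.0884 at day 7 and 0.337 at day 14), but day 7 passed with only the 2 groups in the fit (edgeR adjusted p = 0.031).

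Rapsn, the scaffold that anchors receptors, held 15.4, 16.2, 16.6 and 14.5002 CPM in Acomys day 0, 4.34, 2.34, 2.40 and 3.22 CPM at day 7, and 10.03, 12.1, 17.9 and 16.8 CPM at day 14. At day 7 it fell by 2.34 ± 0.23 on the log2 scale (edgeR adjusted p = 1.23e-08). By day 14 the libraries overlapped day 0 again, at -0.14 ± 0.20 (edgeR adjusted p = 0.634). In Mus the gene fell to the same degree at day 7 and stayed there. Its Mus levels were 9.13, 8.78 and 7.38 CPM at day 0, 2.20, 1.12, 1.22 and 2.11 CPM at day 7, and 2.00, 1.28, 0.811 and 1.46 CPM at day 14. The Mus log2 fold changes were -2.34 ± 0.28 (edgeR adjusted p = 3.96e-07) and -2.59 ± 0.29 (edgeR adjusted p = 3.21e-07).

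Lrp4, the muscle receptor of agrin, is also expressed in skin appendages, where it acts in Wnt signalling. In Acomys it held 224, 183, 275 and 195 CPM at day 0, 20.7, 11.2, 13.8 and 13.3 CPM at day 7, and 86.3, 87.3, 96.8 and 120 CPM at day 14. This was the deepest fall from day 0 of the 10 genes in either species, at -3.89 ± 0.21 for day 7 (edgeR adjusted p = 3.21e-12), and at day 14 the gene was still 2.24-fold below day 0 (-1.17 ± 0.18, edgeR adjusted p = 3e-05). In Mus it held 225, 244 and 217 CPM at day 0, 39.2, 41.0, 48.5 and 31.5 CPM at day 7, and 105, 57.6, 82.6 and 85.1 CPM at day 14. The Mus groups did not overlap either, with log2 fold changes of -2.51 ± 0.20 at day 7 (edgeR adjusted p = 1.66e-09) and -1.47 ± 0.20 at day 14 (edgeR adjusted p = 3.32e-06). Mus day 7 replicate 3 had the highest Lrp4 of its group and the lowest muscle sum, 135 CPM. Mus day 14 went the other way. There the lowest Lrp4, 57.6 CPM, was in replicate 2 with the lowest sum, 58.6 CPM. The highest Lrp4, 105 CPM, was in replicate 1 with the highest sum, 24240 CPM. The part of muscle content in the Lrp4 values was not tested.

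Agrn, which encodes agrin, is also made outside nerve and muscle, and it fell modestly at day 7 in both species. In Acomys it held 144, 114, 204 and 123 CPM at day 0, 109, 94.0, 74.3 and 71.9 CPM at day 7, and 158, 131, 148 and 172 CPM at day 14. It fell by 0.75 ± 0.16 on the log2 scale at day 7 (edgeR adjusted p = 0.000328) and at day 14 overlapped day 0 (0.05 ± 0.16, edgeR adjusted p = 0.816). Mus held 184 to 213 CPM at day 0, 109 to 145 CPM at day 7 and 136 to 178 CPM at day 14. In Mus it fell by 0.62 ± 0.17 at day 7 (edgeR adjusted p = 0.00382), and the day 14 difference did not pass the test (-0.32 ± 0.17, edgeR adjusted p = 0.135) except with only those 2 groups in the fit (edgeR adjusted p = 0.032). These reads count all agrin mRNA and do not separate the neural splice form.

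Dok7, the adaptor that activates MuSK, was at low levels throughout. In Acomys it held 2.09, 1.39, 0.418 and 1.46 CPM at day 0, 1.28, 0.745, 0.889 and 2.44 CPM at day 7, and 2.53, 3.62, 3.21 and 2.58 CPM at day 14. Day 14 was above all day 0 libraries, at 1.11 ± 0.48, but did not pass the test (edgeR adjusted p = 0.0688). It did pass in the table of Acomys alone (edgeR adjusted p = 0.00889), with only the 2 groups in the fit (edgeR adjusted p = 0.0243) and without Acomys day 0 replicate 1 (edgeR adjusted p = 0.0447). The rise from day 7 to day 14 passed narrowly (1.14 ± 0.47, edgeR adjusted p = 0.0494) and was lost in 7 of 8 fits that left out 1 library, all but that without Acomys day 7 replicate 4 (edgeR adjusted p up to 0.133). Mus libraries held 8, 19 and 22 counts at day 0, 1, 4, 3 and 13 at day 7, and 3, 0, 1 and 2 at day 14. By Mus day 14 it fell by 3.09 ± 0.77 on the log2 scale (edgeR adjusted p = 0.002). The Mus day 7 difference missed the threshold (-1.38 ± 0.61, edgeR adjusted p = 0.0584), with replicate 4 the high library, and passed without that library (-2.43, edgeR adjusted p = 0.00294) or without Mus day 0 replicate 1 (edgeR adjusted p = 0.0393).

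**Figure D4:**
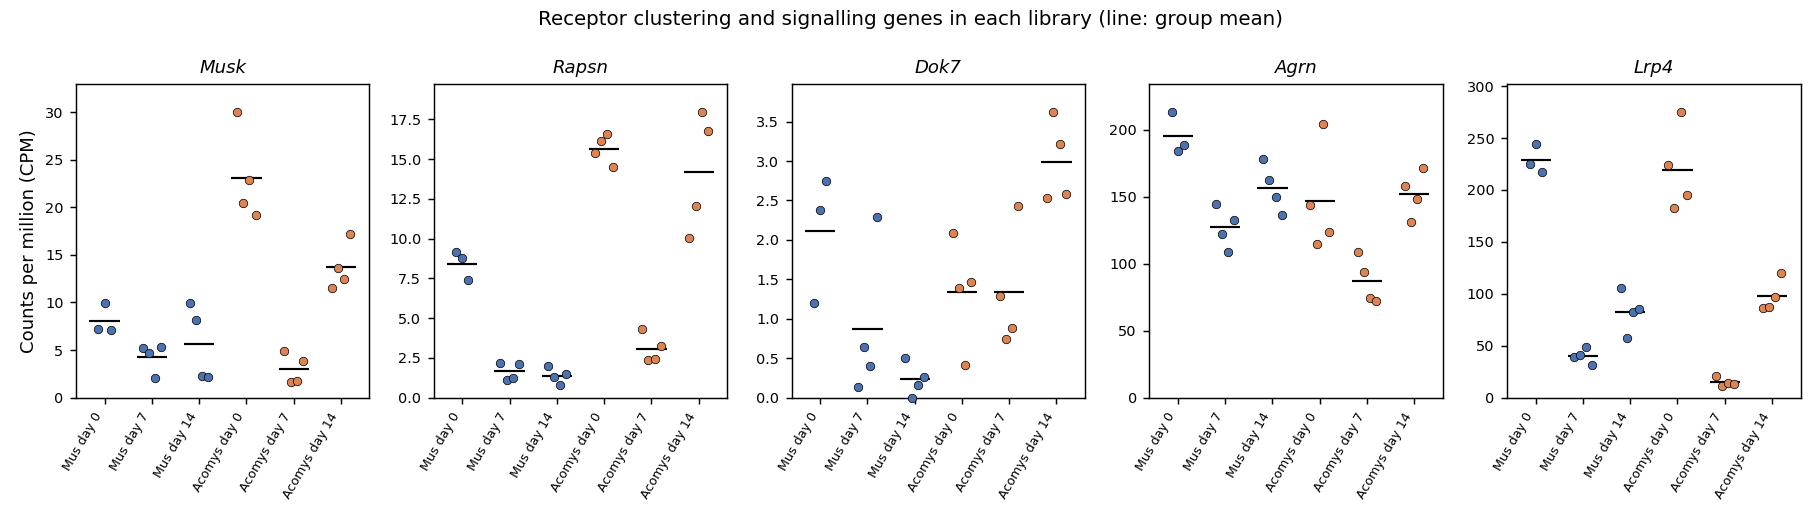
CPM of the 5 clustering and signalling genes in each library (points, in order of replicate number) with group means (lines), on linear axes that start at 0. In Acomys, Musk, Rapsn and Lrp4 drop at day 7 and rise again by day 14. At day 14 Rapsn overlaps day 0, while Musk and Lrp4 are still below every day 0 library. In Mus, Rapsn stays at 2.20 CPM or less in the wounds.

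Counted over the 10 genes, the course in Acomys was 2 up and 5 down at day 7, against 61.8% of all features called in that comparison (30.4% higher, 31.4% lower). The 2 that rose were Chrng and Chrna1, and the 5 that fell were Lrp4, Rapsn, Musk, Agrn and Chrnb1. At day 14 against day 0, 5 rose and 1 fell (38.9% of all features called, 18.9% higher and 20% lower). From day 7 to day 14 all 10 rose, and in none did the groups overlap (44.4% of all features called, 22.6% higher, and 21.6% higher with no overlap). Their median log2 fold change over that week was 1.36, beside a median of -0.01 over all features. With DESeq2's Wald test, 9 of the 10 passed, all but Dok7.

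In Mus, 5 members fell at day 7 and none rose (53.7% of all features called, 26.7% lower). They were Lrp4, Rapsn, Chrne, Agrn and Chrnb1. Of these, Chrne met the low-count filter only through Acomys libraries. At day 14, 5 fell against day 0 and none rose (43.8% of all features called, 22.1% lower), and here Chrna1 and Dok7 stood in place of Agrn and Chrnb1. Since Mus day 0 entered both comparisons, they share controls. From day 7 to day 14, Lrp4 alone passed, with a rise of 1.04 ± 0.19 (edgeR adjusted p = 0.000347, 22.1% of all features called, 9.6% higher). Without Mus day 7 replicate 3, a fall of Chrnd also passed (-3.42, edgeR adjusted p = 0.0429). With the 3 muscle-poor wound libraries left out, 4 members fell in Mus at day 7, Chrnb1 being lost (edgeR adjusted p = 0.109), and 5 at day 14.

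**Figure D5:**
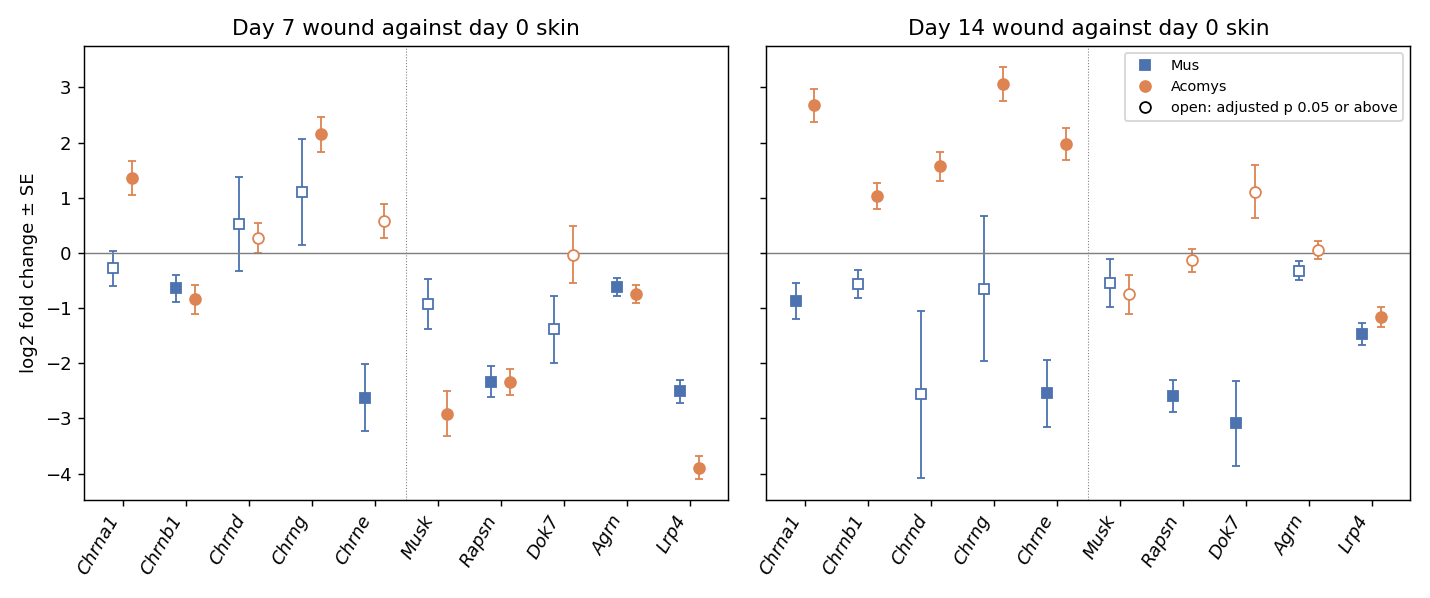
Log2 fold change against day 0 with its SE for the 10 genes at day 7 (left) and day 14 (right), Mus as squares and Acomys as circles, filled where the edgeR adjusted p is under 0.05. At day 14 all 5 Acomys receptor subunits (left of the dotted line) lie above 0, from 1.04 to 3.07, and no Mus gene does.

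The species' changes were then compared directly, as the Acomys change minus the Mus change. In this difference a constant effect of transcript length or mapping on a gene drops out. At day 14, 6 genes differed, all with the more positive change in Acomys (25.1% of all features called, 13.1% higher). They were Chrna1 (3.55 ± 0.44, edgeR adjusted p = 6.51e-06), Chrne (4.52 ± 0.65, edgeR adjusted p = 3.05e-05), Rapsn (2.45 ± 0.36, edgeR adjusted p = 4.18e-05), Dok7 (4.20 ± 0.91, edgeR adjusted p = 0.00153), Chrnb1 (1.60 ± 0.34, edgeR adjusted p = 0.00164) and Chrnd. Of these, Chrne and Chrnd met the low-count filter only through Acomys libraries. In Mus, Chrne rested on 28 counts at day 0, 17 of them in 1 library, and 5 at day 14. Dok7 had 6 Mus counts at day 14. The value for Chrnd, 4.13 ± 1.46 (edgeR adjusted p = 0.0271), rested on 1 Mus count at day 14. It did not pass without the 3 muscle-poor libraries (edgeR adjusted p = 0.13). Nor did it pass without replicate 1 or 4 of Mus day 0, or when replicate 2, 3 or 4 of Mus day 14 was omitted (edgeR adjusted p up to 0.0814). Chrng missed the threshold at 3.71 ± 1.41 (edgeR adjusted p = 0.0511), with 2 Mus counts at day 14, and passed with DESeq2 (adjusted p = 0.0246), and in edgeR without Mus day 14 replicate 3, Acomys day 0 replicate 4 or Acomys day 14 replicate 4 (edgeR adjusted p = 0.0241 at the lowest) or with only the groups compared in the fit (edgeR adjusted p = 0.0394). Lrp4 (0.30 ± 0.27), Agrn (0.37 ± 0.23) and Musk (-0.21 ± 0.57) did not pass, and the 95% interval for Lrp4 ran from -0.25 to 0.86. Without Acomys day 0 replicate 3, Agrn passed (0.58, edgeR adjusted p = 0.0395).

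At day 7, 4 genes differed between the species, in both directions (35.8% of all features called, 17.1% higher and 18.7% lower). Chrna1 (1.64 ± 0.44, edgeR adjusted p = 0.00558) and Chrne (3.20 ± 0.68, edgeR adjusted p = 0.000705) had the more positive change in Acomys. Chrne met the low-count filter only through Acomys libraries and had 5 Mus counts at day 7. Musk (-1.99 ± 0.61, edgeR adjusted p = 0.0143) and Lrp4 (-1.38 ± 0.28, edgeR adjusted p = 0.000564) fell further in Acomys than in Mus. The Rapsn changes differed by -0.00475 ± 0.37, with a 95% interval from -0.77 to 0.76. Dok7 did not pass (1.35 ± 0.80, edgeR adjusted p = 0.196) but did without Mus day 7 replicate 4 (2.40, edgeR adjusted p = 0.0222). From day 7 to day 14, 7 genes rose more in Acomys (22.2% of all features called, 12.7% higher): Lrp4, Rapsn, Chrnb1, Chrna1, Chrnd, Musk and Dok7. Their differences ran from 1.68 (Lrp4) to 4.397 (Chrnd). Chrnd met the low-count filter only through Acomys libraries and had 1 Mus count at day 14. Those of Musk and Dok7 (edgeR adjusted p = 0.0365 and 0.0371) did not pass in 9 and 8 of 16 fits that left out 1 library. For Musk the omitted library was replicate 1, 2 or 4 of Mus day 7, 3 or 4 of Mus day 14, 2 or 3 of Acomys day 7, or 2 or 4 of Acomys day 14. For Dok7 it was replicate 4 of Mus day 7, 2, 3 or 4 of Mus day 14, 2 or 3 of Acomys day 7, or 2 or 3 of Acomys day 14. Chrng missed the threshold (2.66 ± 1.06, edgeR adjusted p = 0.0571) but was past it on omitting replicate 3 of Mus day 7 or replicate 1 of Acomys day 7 (edgeR adjusted p = 0.0157 and 0.0478). Agrn did not pass (0.50 ± 0.22, edgeR adjusted p = 0.115) and did without Acomys day 7 replicate 1 (edgeR adjusted p = 0.0454). Without the 3 muscle-poor Mus libraries, Chrnd and Dok7 did not pass (edgeR adjusted p = 0.0529 and 0.125), and Musk did not with only the groups compared in the fit (edgeR adjusted p = 0.0751).

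Levels were also set between the species on each day, with the limit that the reads of each species were counted on different transcripts, so length and mapping cannot be told apart from expression. In unwounded skin 4 members were higher and 3 lower in Acomys (65.7% of all features called, 34.5% higher and 31.2% lower). Chrna1 and Chrnb1 were lower by 2.70-fold and 2.56-fold (edgeR adjusted p = 0.000657 and 7.37e-05), Musk was 2.86-fold and Rapsn 1.86-fold higher (edgeR adjusted p = 0.00313 and 0.00198), and Agrn was 1.33-fold lower (edgeR adjusted p = 0.036). The Agrn call was lost without replicate 1 or 4 of Mus day 0, or 1, 2 or 4 of Acomys day 0 (edgeR adjusted p up to 0.126), and with only those 2 groups in the fit (edgeR adjusted p = 0.0662). Chrne did not pass (0.68 ± 0.39, edgeR adjusted p = 0.127) but did once replicate 2 of Mus day 0 was omitted (1.37, edgeR adjusted p = 0.0101). Chrnd, with 399 Acomys and 7 Mus counts, was higher in Acomys by a ratio of 38.5 (counting interval 18.5 to 96.3). Chrng, with 56 and 3 counts, was higher by 12.6 (4.10 to 62.9). Chrnd and Chrng met the low-count filter only through Acomys libraries. The adult muscle sum was higher in Mus on that day, as given above.

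At day 7 the species differed in 7 members, 4 higher and 3 lower in Acomys (70.9% of all features called, 35.9% higher and 34.9% lower). The higher ones were Chrnd, Chrng, Chrne and Rapsn, and the lower ones Chrnb1, Agrn and Lrp4. Of the higher ones, Chrnd, Chrng and Chrne met the low-count filter only through Acomys libraries. Dok7 passed only without Mus day 7 replicate 4 (1.76, edgeR adjusted p = 0.0167). At day 14 all 7 that differed were higher in Acomys (72.7% of all features called, 38.1% higher). Chrnd, Chrng and Chrne are among them, and through that filter they could enter only where high in Acomys. Rapsn was 10.1-fold, Dok7 11.9-fold, Chrna1 4.34-fold and Musk 2.48-fold higher (edgeR adjusted p = 4.66e-10, 7.94e-05, 1.46e-06 and 0.00594). Chrne, with 328 Acomys and 5 Mus counts, was higher by a ratio of 39.5 (counting interval 16.8 to 122.5). For Chrnb1, Lrp4 and Agrn, day 14 levels overlapped between the species and did not pass (edgeR adjusted p = 0.343, 0.24 and 0.826).

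Within Acomys some of the members moved together over the 12 libraries, given as Pearson correlations of log2 levels and as a description, since the days are shared. Lrp4, Musk and Rapsn ran together (r = 0.96 to 0.97), and so did Chrna1 with Chrne (0.94) and with Chrng (0.91). Between these sets the values ran from -0.47 (Chrng with Lrp4) to 0.24 (Chrne with Rapsn). The other members did not divide in this way. Chrnb1 stood between the sets, at 0.73 with Rapsn and 0.66 with Musk, and at 0.76 with Chrne and 0.82 with Chrnd. Chrnd ran with Chrne (0.91), Agrn with Rapsn (0.84), and Dok7 with Chrnb1 and Chrnd (0.73 each). Chrng followed the summed embryonic muscle genes (r = 0.98) and not the adult muscle sum (-0.12). Musk and Rapsn followed the adult sum (0.93 each) and not the embryonic one (-0.45 and -0.31), and Lrp4 (0.89), Agrn (0.86) and Chrnb1 (0.85) also followed the adult sum. Over the 11 Mus libraries the correlations with the adult sum ran from 0.31 (Chrng) to 0.84 (Chrnb1), and with the embryonic sum from 0.35 (Chrng) to 0.88 (Rapsn). Those of Chrna1 were 0.63 and 0.82, and those of Musk 0.55 and 0.65. Of genes outside the list, those most like Chrng in Acomys were Actc1 (0.97), the cardiac actin also made in developing muscle, Zfp383 (0.97) and Myh3 (0.97), the embryonic myosin heavy chain. Those most like Chrnb1 were Mef2c, a muscle transcription factor, Myoz2 and Klhl30 (0.96 to 0.98). Those most like Musk were Extl1, Bcam and Cgnl1 (0.98 to 0.99), and those most like Rapsn were Cbs, Lepr and Frem2 (0.99 each), values above those with the adult muscle sum. These within-species rankings were added after the species were seen to stand apart.

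The muscle lists moved as follows beside the members. In Acomys at day 14, 0 of 18 adult muscle genes passed against day 0 in either direction, while 8 of 10 regenerating and embryonic muscle genes rose and none fell. The risers with the smallest adjusted p were Actc1 (5.47 ± 0.43), Myl4 (6.99 ± 0.70) and Tnnt2 (3.56 ± 0.35). The receptor subunits rose on that day, when the adult sums overlapped a wide day 0 range of 13978 to 49902 CPM. Over the Acomys libraries the subunits' correlations with the adult sum ran from -0.12 (Chrng) to 0.85 (Chrnb1). At day 7, 13 of the 18 adult genes fell in Acomys and 6 of the 10 embryonic genes rose. In Mus, 13 and 11 of the 18 adult genes fell at days 7 and 14, while 3 of the 10 embryonic genes rose and 2 fell at day 7, and 4 fell at day 14. The part of muscle content in the members' changes was not tested.

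Other genes of the synapse gave further values. Among 11 tested genes of the synaptic cleft and of signals across it, 4 fell in each species at day 7 and 5 rose. Ache, the acetylcholinesterase that clears the transmitter, fell by 2.97 ± 0.31 in Acomys (edgeR adjusted p = 3.2e-08) and by 3.02 ± 0.38 in Mus (edgeR adjusted p = 8.26e-07). By day 14 it had risen again in Acomys, by 2.59 ± 0.31 over day 7 (edgeR adjusted p = 7.25e-07), and in Mus it was still below day 0 (-2.64 ± 0.37, edgeR adjusted p = 5.84e-06). Colq, the collagen tail that tethers the enzyme, fell in Mus by 3.67 ± 0.39 at day 7 and 3.87 ± 0.40 at day 14 (edgeR adjusted p = 5.81e-08 and 1.01e-07). In Acomys Colq did not pass at either day against day 0, and its change differed between the species at day 14 by 4.64 ± 0.54 (edgeR adjusted p = 2.5e-06). Nrg1, a neuregulin, rose at day 7 in Acomys (4.74 ± 0.37) and in Mus (5.06 ± 0.50), with edgeR adjusted p of 4.39e-10 and 2.22e-08.

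Of 17 genes of the postsynaptic scaffold and signal relay, 7 rose and 6 fell in Acomys at day 7, and 6 rose and 7 fell in Mus. At day 14 against day 0 the counts were 3 and 4 in Acomys and 6 and 6 in Mus. Utrn, the utrophin of the postsynaptic membrane and of other cell types, fell in Acomys by 1.39 ± 0.12 at day 7 (edgeR adjusted p = 3.4e-09) and by 0.51 ± 0.12 at day 14 (edgeR adjusted p = 0.00188). Of 9 tested genes that control synaptic transcription, 4 rose and none fell in Acomys at day 14. Among them was Myog, the myogenin that activates receptor genes in developing muscle, at 2.64 ± 0.48 (edgeR adjusted p = 0.000146). In Mus Myog fell by 3.34 ± 0.85 at day 14 (edgeR adjusted p = 0.00245), and the species' changes differed by 5.98 ± 0.95 (edgeR adjusted p = 9.42e-05).

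Glia of the nerve were measured alongside. All 8 Schwann cell genes fell at day 7 in Acomys and in Mus. At day 14, 5 of the 8 were still down in Acomys and 4 in Mus, and from day 7 to day 14, 7 rose in Acomys and 3 in Mus. The summed Schwann level was 346 to 409 CPM in Acomys day 0, 81.8 to 111 CPM at day 7 and 169 to 232 CPM at day 14, so at day 14 it was below day 0 while the receptor subunits were above it. Its part in the receptor values was not tested. Hair follicle genes and Wnt genes related to Lrp4 were followed as well. Of 9 tested, 7 fell in Acomys at day 7 and none rose, while 5 fell and 1 rose in Mus. From day 7 to day 14 all 9 rose in Acomys and 4 in Mus. At day 14 against day 0, when Lrp4 was still down, 3 rose (Shh, Lef1 and Lrp6) and 2 fell in Acomys, and 2 rose and 4 fell in Mus. Their summed level in Acomys was 377 to 710.4 CPM at day 0, 259 to 319 CPM at day 7 and 637 to 1028 CPM at day 14. Of 10 epidermal genes, none rose and 6 fell in Acomys at day 14 against day 0, and all 6 dermal fibroblast genes rose. In Mus at day 14, 3 epidermal genes rose and 5 fell, and 3 fibroblast genes rose. The part of these cell types in the values of Lrp4 and Agrn was not tested.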

How the data were processed

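RNA from 23 libraries of 6 groups was sequenced as paired reads with a TruSeq kit, per the labels. FastQC 0.11.4, Trimmomatic 0.32, Bowtie2, RSEM 1.2.28 and the build mm9 are named in the submitters' processing notes, with no role or order given. The deposited tables hold expected counts for each species alone and whole-number counts in a table shared by both species; how the authors joined Acomys transcripts to mouse symbols is not given in the sources used here. A total of 34 spike-in rows, 0.679 to 1.96% of counts per library, were removed.

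One edgeR 4.0.16 (limma 3.58.1, R 4.3.3) quasi-likelihood model with TMM scaling was fitted to the shared counts of all 6 groups, and 12 comparisons were tested. Every feature passed the low-count filter, Chrnd, Chrng and Chrne only through Acomys libraries. Expected counts of the species tables, rounded to whole numbers, served as an alternative, as did DESeq2 1.42.0. The common biological coefficient of variation was 0.186. On data simulated for Acomys day 14 against day 0 over 14514 features, 76% of 2-fold and 95% of 4-fold changes were recovered, and 2.84% of calls were false. The simulation changed 100 features by each fold, none of them at very low levels, with spreads taken from the fit. In the data 38.9% of features were called in that comparison. The rates do not cover values that rest on few counts. Intervals of count ratios cover counting error only.

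The members and gene lists were chosen with earlier results of these data known. All members are named. Of each other list, the 3 genes per direction with the smallest adjusted p could be named. Genes most like a member were the 3 with the highest Pearson correlation of log2(CPM + 0.5). Those most like Lrp4 are not reported here. No duplicate libraries were found, and whether libraries of the same replicate number are paired was not settled. The main model did not use the replicate number. A normalised pool library of Acomys was not analysed here.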

Additional observations from a re-analysis of the deposited data

Results flagged for a closer look

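Chrnd in Mus day 14 had 1 library apart from the other 3: replicate 1 held 0.166 CPM, which is 1 count, and the others 0. This was the only such library among 50 groups of 4 examined. Chance gives about 1 in 20 for continuous values, a rate that does not hold for counts near 0. Here 1 count alone set the flag.

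The other results listed here are differences between the species' changes that passed edgeR's test of the difference itself (Acomys change minus Mus change, log2 scale). For day 7 against day 0 they were 1.64 for Chrna1, 3.20 for Chrne, -1.99 for Musk and -1.38 for Lrp4. For day 14 against day 0 they were 3.55 for Chrna1, 1.60 for Chrnb1, 4.13 for Chrnd, 4.52 for Chrne, 2.45 for Rapsn and 4.20 for Dok7. From day 7 to day 14 they were 1.90 for Chrna1, 1.80 for Chrnb1, 4.397 for Chrnd, 1.78 for Musk, 2.46 for Rapsn, 2.85 for Dok7 and 1.68 for Lrp4. The Mus side of Chrnd, Chrne and Dok7 rested on 1, 5 and 6 counts at day 14. Chrnd and Chrne met the low-count filter only through Acomys libraries.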

How the results depend on the processing

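The 5 subunit rises and the Lrp4 fall in Acomys at day 14 passed in all 8 fits that left out 1 library. Counts of members called stayed within 1.5 times of those reported, except from day 7 to day 14 in Mus, where 1 became 2 with DESeq2 (Chrnd, adjusted p = 0.0248) and 1 to 2 with 1 library left out.

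Pairing by replicate number was not settled. Deviations from group means correlated between libraries of the same number at r from -0.16 to 0.58. Still, 9 of 11 Mus libraries and 5 of 12 Acomys libraries correlated best with a library of their own number. The labels repeat the same numbers across days, and the main fit took the libraries as independent. With the replicate number as a block, 4, 4 and 1 members passed in Mus and 7, 8 and 10 in Acomys (day 7 against 0, 14 against 0, 14 against 7). In Acomys at day 14 the block added Dok7 (1.17, edgeR adjusted p = 0.045) and Musk (-0.74, edgeR adjusted p = 0.0441). In Mus, Chrnb1 at day 7 and Chrna1 at day 14 missed the threshold under it (edgeR adjusted p = 0.0731 and 0.09).

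Signs turned only for values that had not passed; the cause was not tested. These were Chrne in Mus from day 7 to 14 without the muscle-poor libraries (-0.44), Rapsn in Acomys at day 14 in the species table (0.047), and the Rapsn species difference at day 7 with RLE scaling (0.00028), DESeq2 (0.0055) and only the groups compared (0.022). Leaving out 1 library gave, in Mus from day 7 to 14, -0.082 to 0.17 (Chrnb1), -0.28 to 0.45 (Chrne) and -0.067 to 0.67 (Musk). In Acomys it gave -0.055 to 0.62 (Chrnd) and -0.49 to 0.27 (Dok7) at day 7 and -0.047 to 0.26 (Agrn) at day 14. Between species it gave -0.19 to 0.016 (Lrp4, day 0), -0.070 to 0.41 (Chrna1, day 7) and -0.10 to 0.027 (Agrn, day 14). Species differences ranged from -0.37 to 0.033 (Chrnb1), -0.59 to 0.093 (Chrnd), -0.22 to 0.18 (Rapsn) and -0.25 to 0.075 (Agrn) at day 7, and from -0.50 to 0.24 (Musk) at day 14. Low Mus counts of Chrnd, Chrng, Chrne and Dok7 limit what could be detected there.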

Other observations

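Chat, the enzyme that makes acetylcholine, was read from the table of Mus alone, where 15337 genes were tested. Its 3 day 0 libraries held 74, 72 and 105 counts, its 4 day 7 libraries 0 and its day 14 libraries 0, 0, 1 and 1. Day 7 was at least 109-fold lower than day 0, taking 3 counts over the group as the floor (edgeR adjusted p = 8.28e-06), and day 14 fell by 6.82 ± 0.50 on the log2 scale (edgeR adjusted p = 2.13e-05). Other motor nerve genes read from the same Mus counts went both ways from day 0 (3 libraries) to day 7 (4 libraries). Slc18a3 had 2 and 0 counts and Syp 100 and 72, while Slc5a7 had 2 and 11 and Prph 3 and 42. These counts are given without a test. The cells that held Chat in unwounded skin were not examined, and whether its fall reflects motor nerve was not tested.

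Of 3 tested neuronal acetylcholine receptor subunit genes, Chrna9 rose in Mus at day 7, from 5 counts over 3 libraries to 81 over 4 (3.68 ± 0.61, edgeR adjusted p = 2e-05), and fell again by day 14 (-4.12 ± 0.61, edgeR adjusted p = 2.74e-05). In Acomys it did not pass at day 7 (0.65 ± 0.38, edgeR adjusted p = 0.142), and the species' changes differed by -3.03 ± 0.76 (edgeR adjusted p = 0.00294).

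Nefl, the light neurofilament of axons, was 1 of 2 tested motor nerve genes. In Acomys it had 2 counts in all at day 0, 25.2 to 78.5 CPM at day 7 and 2.12 to 9.02 CPM at day 14 (day 14 against day 7, -2.79 ± 0.43, edgeR adjusted p = 3.6e-05). In Mus it had 0 counts at day 0, 5 at day 7 and 9 at day 14. The other gene of that list, Vamp1, a synaptic vesicle protein, did not pass in Acomys at day 7 (-0.41 ± 0.29, edgeR adjusted p = 0.23) or day 14 (-0.59 ± 0.30, edgeR adjusted p = 0.125). In Mus it fell by 0.98 ± 0.28 on the log2 scale at day 14 (edgeR adjusted p = 0.00652), and it was lower in Acomys than in Mus on all 3 days.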
